A study of Mus musculus with 3 samples.

Results

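T follicular helper (Tfh) genes were followed in CD45+ leukocytes of mouse colon, through 8 transcripts: Sostdc1, Izumo1r, Tox2, Il21, Cxcr5, Sh2d1a, Tbc1d4 and Maf. Each was matched by its symbol to 1 row among the 30905 genes of the count matrices, and all 8 were found. The 3 groups were 1 library each of droplet single-cell sequencing of transcript 3′ ends from C57BL/6 mice. Library C came from normal colon of healthy mice, and the labels, which carry the model's treatment text for all 3 libraries, do not say whether C received it. Library T1 came from colon bearing low-grade and T3 from colon bearing high-grade intraepithelial neoplasia, both in a model of colorectal cancer made with azoxymethane (AOM, a carcinogen injected at 12 mg/kg) and 3 cycles of 2.5% dextran sodium sulfate (DSS, which injures the colon lining) for 7 days with 14 days of water. The model was begun at 6 to 8 weeks of age, and no source used here gives the age at sampling or the number of mice per library. The grade of neoplasia and the treatment cannot be told apart in a comparison with C. With 1 library per group there is no replicate check and no test between conditions. The 95% intervals in brackets cover counting error only.

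Tfh cells are CD4+ T cells that help B cells make antibody. They enter the B-cell follicle along a gradient of the chemokine CXCL13, which CXCR5 senses, and stay attached to B cells through receptors that signal by the adaptor SAP, the product of Sh2d1a. They then deliver IL-21, CD40 ligand and ICOS signals that drive germinal centres, and the transcription factors BCL6, MAF and TOX2 take part in the programme. The gut holds such cells in Peyer's patches and isolated follicles, where they shape IgA to the microbiota. None of the 8 transcripts belongs to Tfh cells alone: regulatory T cells carry Izumo1r and Maf, type 17 helper cells carry Maf and Il21, and B cells carry Cxcr5.

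Barcodes with at least 200 detected genes and at most 20% mitochondrial UMIs (unique molecular identifiers, which count transcript molecules) were kept, leaving 6004, 6143 and 4543 in C, T1 and T3. A T barcode had at least 1 UMI of Cd3d, Cd3e or Cd3g and none of the B-cell genes Cd79a, Cd79b and Ms4a1. This left 1584 T barcodes in C, 1575 in T1 and 2002 in T3, with medians of 5698.5, 6087 and 4063 UMIs. CD3-positive barcodes that also held a B-cell UMI made up 44.5%, 40.5% and 27% of the CD3-positive barcodes of C, T1 and T3 and were set apart. T3 was the shallowest library and also held haemoglobin transcripts, which were above 1% of UMIs in 344 of its T barcodes and in none of C and T1. The labels call the mice male, but Xist was found in 89.7%, 89.3% and 76.3% of the T barcodes of C, T1 and T3, and 4 Y-linked genes had 0, 0 and 1 UMIs there. Barcode sequences shared between libraries numbered 35 to 39 per pair, and 0 to 3 per pair among T barcodes.

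T barcodes were split by UMIs of Cd4, Foxp3, Il17a and Cd8b1. The Cd4 class, with a Cd4 UMI and none of the other 3, is where Tfh cells with a detected Cd4 UMI would fall. It held 308 barcodes of C, 482 of T1 and 500 of T3, or 19.4%, 30.6% and 25% of T barcodes. Tfh cells without a Cd4 UMI or with a B-cell UMI would fall elsewhere. CD3-positive barcodes held 239, 370 and 18 Sostdc1 UMIs in C, T1 and T3, and 123, 239 and 12 of these lay in the Cd4 class. The Foxp3 class of regulatory T cells held 47, 188 and 64 barcodes, the class with Il17a and Cd4 held 5, 34 and 15, the class with Il17a and no Cd4 held 5, 8 and 20, and the Cd8b1 class held 249, 235 and 381. Barcodes with a Cd8b1 UMI beside any of the other 3 genes numbered 27, 29 and 47. Barcodes without a UMI of the 4 genes numbered 943, 599 and 975, and in T3 they were shallow, at a median of 1586 UMIs, and held 272 of the haemoglobin-rich barcodes. Levels are in CPM, the summed UMIs of a gene scaled to the same total for every class and library. A gene counted as higher or lower, here called, if the CPM of the sides differed 2-fold or more, both sides together held 20 or more UMIs and the interval did not include equal levels.

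The genes lie on 7 chromosomes (GRCm38, GENCODE M21). Sostdc1 spans chr12:36314139-36318452, Izumo1r chr9:14885814-14903949, Tox2 chr2:163203125-163324170, Il21 chr3:37222759-37232636, Cxcr5 chr9:44511787-44561877, Sh2d1a chrX:42502453-42529330, Tbc1d4 chr14:101442360-101609191 and Maf chr8:115682942-115707794. Cxcr5 overlaps Bcl9l on the opposite strand, and no source used here says whether the counting used strand. Bcl9l had 838, 858 and 714 UMIs over all barcodes of C, T1 and T3. A promoter of Il21 and the outermost of the 5 Tox2 promoters are shown because both genes were lower in Cd4 barcodes of T3 than of C. They run from 250 bases before to 50 after the start (RefSeq, GRCm38.p6, 5′ to 3′ on the gene's strand), and capitals mark matches to GGAAA, the core letters of NFAT sites, on either strand. The Il21 promoter lies at chr3:37232587-37232886 on the minus strand and the Tox2 promoter shown at chr2:163202877-163203176 on the plus strand.
Il21: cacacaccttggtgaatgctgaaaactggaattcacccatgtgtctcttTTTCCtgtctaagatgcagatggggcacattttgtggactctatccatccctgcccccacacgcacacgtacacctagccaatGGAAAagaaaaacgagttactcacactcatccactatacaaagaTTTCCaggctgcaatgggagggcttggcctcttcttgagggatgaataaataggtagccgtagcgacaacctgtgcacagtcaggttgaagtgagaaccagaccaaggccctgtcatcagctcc
Tox2: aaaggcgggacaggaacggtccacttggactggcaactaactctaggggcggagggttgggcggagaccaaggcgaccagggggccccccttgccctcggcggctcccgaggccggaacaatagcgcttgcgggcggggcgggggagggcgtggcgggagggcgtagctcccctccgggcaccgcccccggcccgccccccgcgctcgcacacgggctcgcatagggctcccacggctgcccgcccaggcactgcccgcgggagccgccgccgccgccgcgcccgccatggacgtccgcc
The Il21 sequence holds 3 matches to GGAAA, letters found in 61.3% of 32851 promoters of this length, and the Tox2 sequence holds 0. Neither holds a match to TGANTCA (AP-1, in 7.81% of promoters), TGCTGAC (MAF, 4.67%, which can overlap an AP-1 match) or CTTTGA (TCF/LEF, 16%), searched on both strands. Of the other 4 Tox2 promoters, those that start at 163225203 and 163225204, which overlap, each hold 1 match to GGAAA and 1 to CTTTGA, and the rest hold 0 of the 4 motifs.

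Across all T barcodes, Maf was higher in T1 than in C, Sostdc1 was lower in T3 than in C, and 5 of the 8 members were lower in T3 than in T1. Maf, a basic leucine zipper factor that drives IL-21, IL-4 and IL-10, was at 152 CPM in C, 421 in T1 and 175 in T3. It was called higher in T1 than in C, at a log2 ratio of 1.47 [1.38, 1.55], and it was the 1 member called of 8 in that comparison, in which 2.57% of the 11102 genes tested were called higher and 3.77% lower. The other 7 members had log2 ratios of T1 to C between 0.29 and 0.77. Sostdc1, which encodes a secreted antagonist of BMP and Wnt signals, was at 17.3 CPM in C, 29.5 in T1 and 2.23 in T3. It was 7.75-fold lower in T3 than in C, with a log2 ratio of −2.95 [−3.75, −2.25], and was the 1 of 8 called, beside a background of 4.41% higher and 9.73% lower. Between T3 and T1, 5 of 8 members were lower in T3, beside a background of 6.68% lower and 3.73% higher: Sostdc1 (−3.73), Maf (−1.27), Cxcr5 (−1.26), Tox2 (−1.24) and Il21 (−1.20). These sums mix a change within a class with a change in the shares of the classes, and the Foxp3 class, where Maf is high, was 2.97%, 11.9% and 3.20% of T barcodes in C, T1 and T3. Summed markers of gamma-delta T cells were at 533, 166 and 61.3 CPM in the T barcodes of C, T1 and T3, those of NK cells at 587, 350 and 70.7 CPM and those of myeloid cells at 10.9, 79.4 and 766 CPM. Haemoglobin was at 1.54, 0.416 and 4759 CPM. The part of these shifts in the levels over all T barcodes was not tested.

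Within the Cd4 class, the members of T1 stayed near those of C, and those of T3 were lower to unequal degrees. Called between T1 and C were 0 of 8, where the background was 1.68% higher and 1.21% lower, and the median log2 ratio of the members was 0.13, against 0.00 over all genes tested. In T3, 4 of 8 were lower than in C and 0 higher, with a background of 5.82% lower and 4.06% higher. The median of the members was −1.01, against −0.06 over all genes. From T1, 3 of 8 were lower in T3 and 0 higher (background 6.61% lower and 3.59% higher), with a median of −0.84 against −0.06. The comparisons of T1 and of T3 with C share the C library, and both comparisons of T3 share T3. All 8 members had at least 20 UMIs in each pair of libraries. Scaling by the median of ratios raised the ratios of T3 to C by 0.10 and of T3 to T1 by 0.12 in this class, and no member's call changed.

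**Figure D1:**
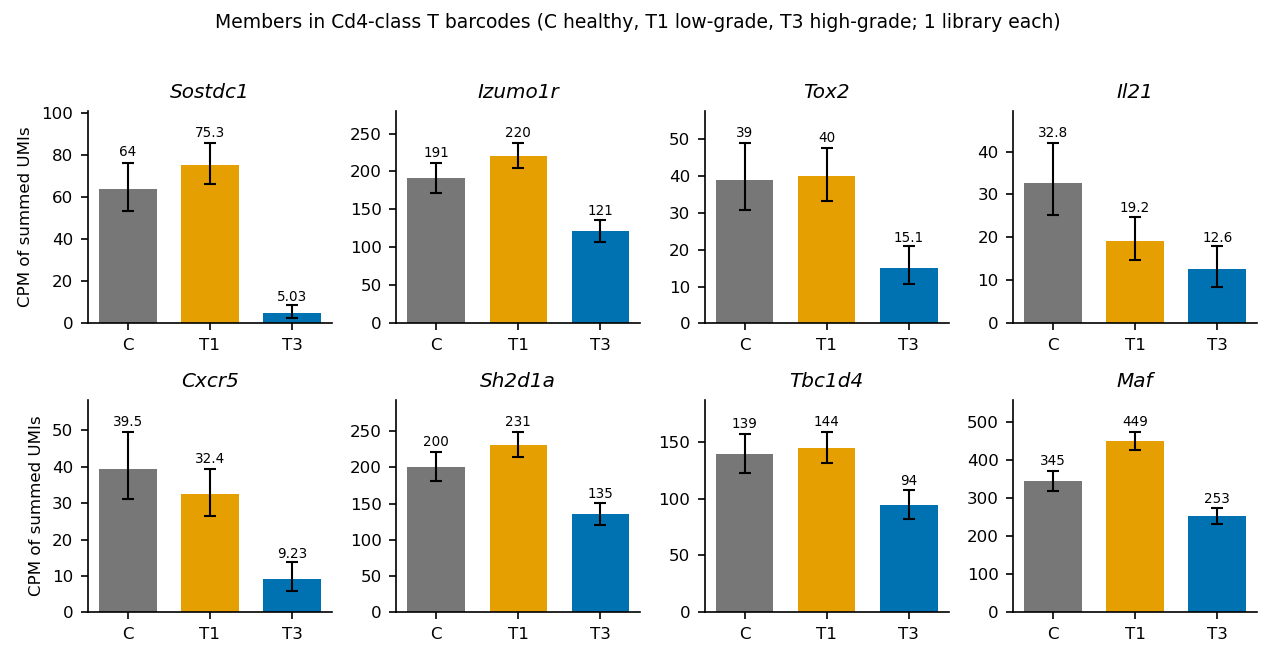
Levels of the 8 members in the Cd4 class, in CPM of summed UMIs on the y axis, for libraries C, T1 and T3 on the x axis. Bars are 1 library each and error bars are exact 95% Poisson intervals of the UMI count. Sostdc1 stood at 5.03 CPM in T3, against 64.0 in C and 75.3 in T1, and Maf at 253 in T3, against 345 in C and 449 in T1.

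Among the secreted signals of the class, Sostdc1 was at 64.0 CPM in C, 75.3 in T1 and 5.03 in T3. It was 12.7-fold lower in T3 than in C (log2 ratio −3.67 [−4.66, −2.81]) and 15.0-fold lower than in T1 (−3.90 [−4.87, −3.07]). Of its 12 UMIs in T3, 11 came from a single barcode, and with the richest barcode of each library left out the ratio to C was −7.04 [−12.4, −4.53]. Il21, the cytokine by which Tfh cells drive germinal centre and plasma cells, was at 32.8 CPM in C, 19.2 in T1 and 12.6 in T3. It was lower in T3 than in C, at −1.38 [−2.06, −0.73], and had a log2 ratio of −0.77 [−1.30, −0.24] in T1 to C and of −0.61 [−1.29, 0.04] in T3 to T1. Of these ratios, only T3 to C passed 2-fold for Il21, whereas Sostdc1 was low in T3 against both libraries.

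Cxcr5, the follicle-homing receptor, was at 39.5 CPM in C, 32.4 in T1 and 9.23 in T3. It was 4.28-fold lower in T3 than in C (−2.10 [−2.85, −1.40]) and 3.51-fold lower than in T1 (−1.81 [−2.55, −1.14]). Its level in the Cd4 class of T3 was not set apart by counting error from the 4.50 CPM of the Cd8b1 class of the same library (log2 ratio of Cd8b1 to Cd4 −1.04 [−2.28, 0.10]). Tox2, an HMG-box transcription factor, was at 39.0 CPM in C, 40.0 in T1 and 15.1 in T3. It was lower in T3 than in C by a log2 ratio of −1.37 [−1.98, −0.78] and lower than in T1 by −1.41 [−1.98, −0.86]. Cxcr5 and Tox2 shared a pattern of like levels in C and T1 and a lower one in T3.

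The other 4 members moved in the same direction without reaching 2-fold. Maf was at 345 CPM in C, 449 in T1 and 253 in T3, with a log2 ratio of −0.45 [−0.61, −0.29] in T3 to C. Izumo1r, folate receptor 4, a surface marker shared by Tfh and regulatory T cells, was at 191, 220 and 121 CPM in C, T1 and T3, with a ratio of −0.65 [−0.88, −0.43]. Sh2d1a, encoding SAP, was at 200, 231 and 135 CPM, with a ratio of −0.57 [−0.79, −0.35], and Tbc1d4, a Rab GTPase-activating protein that acts on glucose transporter traffic, was at 139, 144 and 94.0 CPM, with a ratio of −0.56 [−0.83, −0.30]. Against T1, the ratios of these 4 genes in T3 lay between −0.86 and −0.62. For each of the 4, T1 had the highest level and T3 the lowest, and their intervals in the plot of Cd4-class levels did not overlap between T3 and T1.

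**Figure D2:**
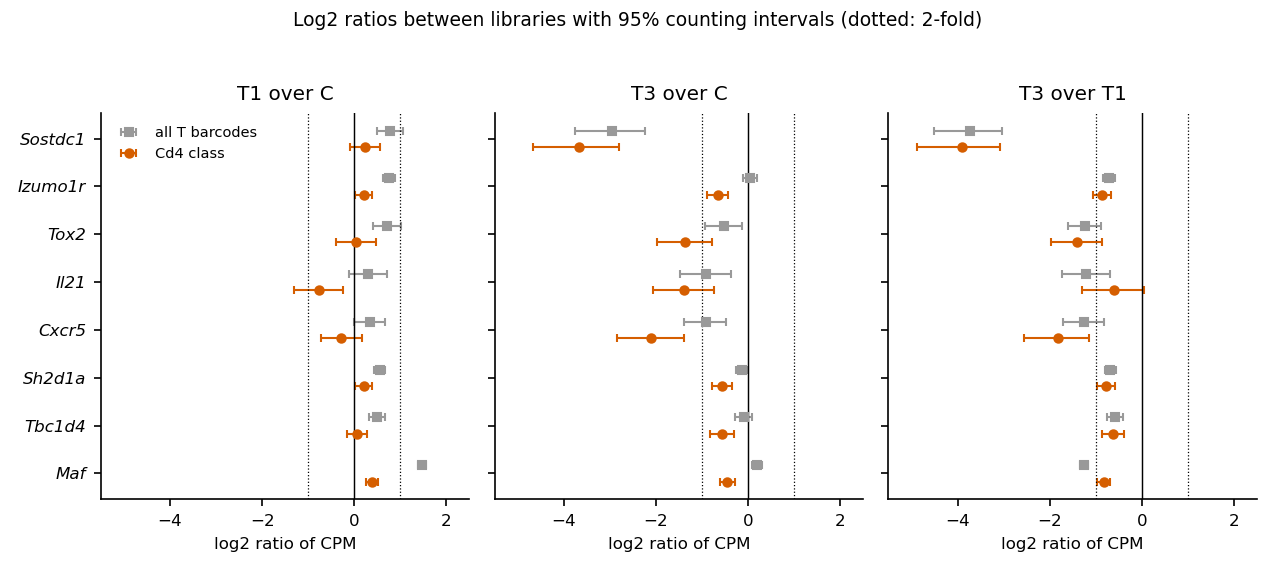
Log2 ratios of CPM between libraries on the x axis for the 8 members on the y axis, in all T barcodes (grey squares) and in the Cd4 class (orange circles), with exact 95% counting intervals; dotted lines mark 2-fold. Maf was called higher in T1 than in C across all T barcodes, at 1.47, and had a ratio of 0.38 within the Cd4 class, and Sostdc1 was the member with the largest negative ratios in T3.

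The Cd4 class of T3 also differed from that of C and T1 in some transcripts of naive and recirculating T cells. Lef1 was at 259, 238 and 548 CPM in C, T1 and T3, S1pr1, the receptor for leaving tissue, at 122, 108 and 253 CPM and Ccr7, the lymph node homing receptor, at 172, 177 and 310 CPM. Lef1 and S1pr1 were called higher in T3 than in C and than in T1 (background 4.06% and 3.59% higher), and Ccr7 in neither. Klf2, a factor that maintains egress receptors, went the other way. It was called lower in T1 and in T3 than in C (background 1.21% and 5.82% lower). Cd4 barcodes without a UMI of Lef1, S1pr1 and Ccr7 numbered 84 in C, 158 in T1 and 58 in T3, or 27.3%, 32.8% and 11.6% of the class. The median UMI counts were 5362.5, 5799.5 and 3742 in this subset of C, T1 and T3, against 6118.5, 6321.5 and 4802.5 in the whole class. This subset was chosen after the data were seen. In it, Sostdc1 was at 101 CPM in C, 31.9 in T1 and 5.06 (1 UMI) in T3, and remained lower in T3 than in C (−4.31 [−9.65, −1.76]). Cxcr5 was at 69.2, 34.1 and 25.3 CPM in C, T1 and T3, lower in T3 than in C (−1.45 [−3.17, −0.08]). These were the 2 members called lower in T3 than in C, with a background of 6.35% lower and 6.53% higher.

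Tox2 and Il21 did not hold their call in that subset, nor did Cxcr5 in T3 to T1, at −0.43 [−2.15, 0.94]. Tox2 was at 53.6, 30.8 and 65.8 CPM in C, T1 and T3, with a log2 ratio of 0.30 [−0.80, 1.33] in T3 to C, and was called higher in T3 than in T1, at 1.09 [0.02, 2.09] on 13 and 28 UMIs (background 6.21% higher and 5.05% lower). Il21 was at 58.1, 26.4 and 50.6 CPM, with a ratio of −0.20 [−1.42, 0.90] in T3 to C. Maf, Tbc1d4 and Sh2d1a had positive ratios there of 0.77, 0.73 and 0.72 in T3 to C, where the whole class had negative ones. Izumo1r was also higher in T3 than in C in the subset, at 197, 158 and 233 CPM in C, T1 and T3. Lower in T1 than in C were Sostdc1 (−1.65 [−2.38, −0.95]), Il21 (−1.14 [−2.00, −0.28]) and Cxcr5 (−1.02 [−1.79, −0.25]), 3 of 8, with a background of 2.04% lower and 2.34% higher. How far the subset departed from the whole class thus varied by member, and the part of naive cells in the results for the whole class was not tested.

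Shares of positive barcodes were compared after thinning each barcode to 1000 UMIs. Sostdc1 was found in 3.61% of Cd4 barcodes of C, 3.77% of T1 and 0 of 473 in T3, which allows a share of up to 0.634%; without thinning the shares were 5.84%, 5.39% and 0.4%. Cxcr5 was found in 3.28%, 2.94% and 0.634% of thinned Cd4 barcodes (13%, 14.1% and 3.6% unthinned), and in 0.405%, 0% and 0.280% of thinned Cd8b1 barcodes, which should lack it. Tox2 was in 4.26%, 4.61% and 1.69% (14.6%, 15.6% and 5.2% unthinned), and Il21 in 2.30%, 1.68% and 1.06% (9.09%, 6.43% and 3.2%). In B barcodes, used as a background for the members other than Cxcr5, the thinned shares of Sostdc1, Tox2 and Il21 were at most 0.275%. Tox2 had 59 UMIs in B barcodes of C (4.06 CPM), against 1 UMI (0.621 CPM) in the Cd8b1 class of C. B barcodes are thus not shown to lack Tox2. The median UMI counts behind the shares above were 6118.5, 6321.5 and 4802.5 in the Cd4 class, 6274, 7249 and 6126 in the Cd8b1 class and 4677.5, 5033.5 and 3385 in B barcodes.

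Maf was found in 25.2%, 33.5% and 14.4% of thinned Cd4 barcodes of C, T1 and T3 (48.7%, 67.0% and 28.6% unthinned), Sh2d1a in 16.4%, 18.9% and 10.8% and Izumo1r in 14.1%, 18.2% and 9.51%. Tbc1d4 was in 12.8%, 10.5% and 8.03%. In thinned B barcodes the share of Maf was between 1.09% and 1.34%, and those of the other 3 were at most 0.546%. The share in the Cd4 class of T3 was the lowest of the 3 libraries for every member.

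The members were spread differently over the T-cell classes. In the Cd8b1 class Sostdc1 had 0 UMIs in each library, and the interval of its log2 ratio to the Cd4 class ended at −4.78 in C and −5.12 in T1. In the Foxp3 class it had 1 UMI in C and 0 in T1 and T3, and the interval of its log2 ratio to the Cd4 class ended at −4.48 in T1. Compared with the Cd4 class, the Cd8b1 class was lower for 8 of 8 members in C (background 3.47% lower), 8 of 8 in T1 (8.97%) and 5 of 8 in T3 (4.6%), and higher for 0 of 8 (background 2.96%, 1.61% and 2.4% higher). Sh2d1a had the narrowest gap, at 85.7, 70.0 and 81.0 CPM in Cd8b1 barcodes of C, T1 and T3, and its ratio to the Cd4 class of T3 was −0.74 [−1.01, −0.47]. Between libraries, 4 of the 8 members (Izumo1r, Sh2d1a, Tbc1d4 and Maf) had 20 UMIs in each comparison of the Cd8b1 class and 0 of the 4 were called: the background was 0.841% higher and 5.41% lower in T1 over C, 3.42% and 7.67% in T3 over C, and 4.88% and 2.44% in T3 over T1. Maf was at 19.3, 18.1 and 25.6 CPM there and Izumo1r at 28.6, 17.5 and 25.2 CPM in C, T1 and T3.

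**Figure D3:**
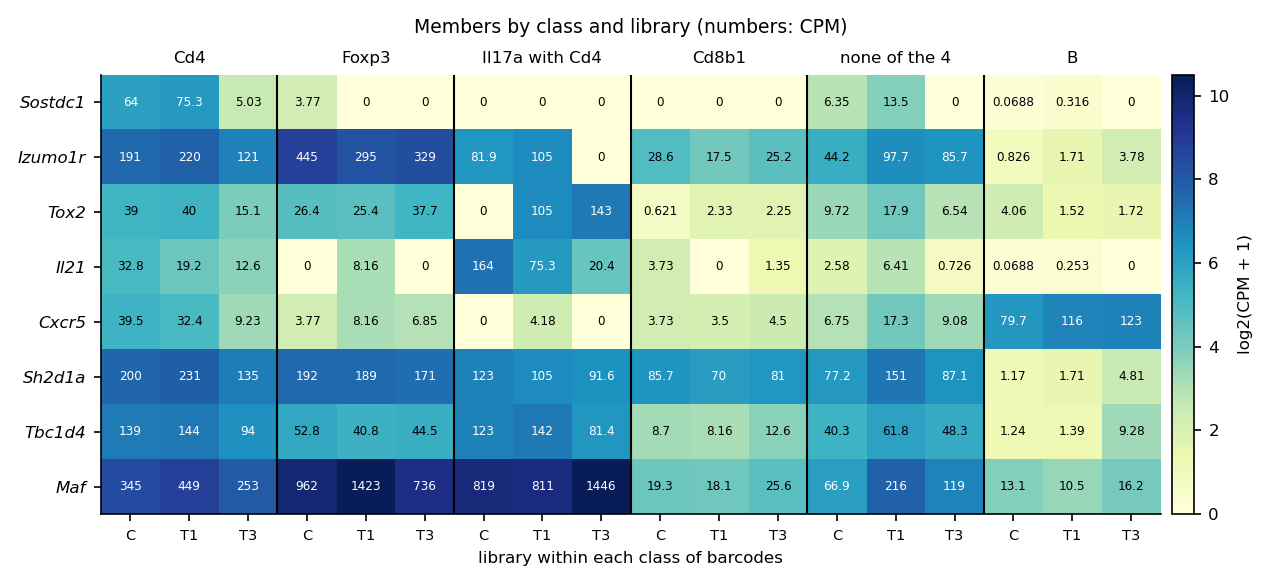
CPM of the 8 members (rows) in 5 classes of T barcodes and in B barcodes, for libraries C, T1 and T3 within each class (columns). Numbers are CPM and the colour is log2(CPM + 1). Maf was at 736 to 1423 CPM in Foxp3 barcodes, Tox2 at 105 and 143 CPM in the barcodes of T1 and T3 with Il17a and Cd4, and Cxcr5 at 79.7 to 123 CPM in B barcodes.

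Regulatory T barcodes held more Maf and less Tbc1d4 than Cd4 barcodes in each library. Maf was at 962 CPM in C, 1423 in T1 and 736 in T3 in the Foxp3 class, 2.79-fold, 3.17-fold and 2.91-fold above the Cd4 class of the same library. Izumo1r was at 445, 295 and 329 CPM, above the Cd4 class by log2 ratios of 1.22 in C and 1.44 in T3, and by 0.42 in T1. Tbc1d4 was lower than in the Cd4 class in every library, at 52.8, 40.8 and 44.5 CPM. Sostdc1, Cxcr5 and Il21 were lower in C and T1, Tox2 was higher in T3 (1.32 [0.19, 2.32]), and Sh2d1a had ratios of −0.06, −0.28 and 0.34 in C, T1 and T3. Icos was higher than in the Cd4 class by 1.52, 1.31 and 1.48. Of the 8 members, 2 were higher and 4 lower than in the Cd4 class in C (background 6.61% and 1.75%), 1 and 4 in T1 (7.32% and 3.23%), and 3 and 1 in T3 (10.9% and 2.39%).

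Between libraries, no member was called in the Foxp3 class with all its barcodes and summed UMIs. Of the 5, 4 and 5 members with 20 UMIs in T1 over C, T3 over C and T3 over T1, 0 were called, beside backgrounds of 2.56%, 5.26% and 4.36% higher and 2.47%, 3.86% and 3.72% lower. Maf had a log2 ratio of 0.57 [0.37, 0.76] in T1 to C and of −0.95 [−1.16, −0.74] in T3 to T1, which passed 2-fold, at −1.10 [−1.32, −0.88], when the richest barcode of each library was left out, and at −1.13 [−1.34, −0.92] with means over barcodes. Izumo1r had −0.59 [−0.90, −0.28] in T1 to C. Cxcr5 had 1, 9 and 2 UMIs and Il21 0, 9 and 0 in C, T1 and T3, too few to compare. Pdcd1, which was lower in Cd4 barcodes of T3, was at 49.0, 34.5 and 92.4 CPM in Foxp3 barcodes of C, T1 and T3.

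Barcodes with Il17a and Cd4 carried Maf and Tox2 at levels at or above those of the Cd4 class. Tox2 was at 105 CPM in the 34 barcodes of T1 and 143 CPM in the 15 of T3, above the Cd4 class by log2 ratios of 1.39 [0.71, 2.01] and 3.24 [2.23, 4.16], and had 0 UMIs in the 5 barcodes of C. Maf was at 819, 811 and 1446 CPM in C, T1 and T3, above the Cd4 class in C (1.25) and T3 (2.51), with a ratio of 0.85 in T1. Il21 was at 75.3 CPM in T1, 3.92-fold above the Cd4 class on 18 UMIs, and had 4 UMIs in C and 2 in T3. Cxcr5 had 0, 1 and 0 UMIs and Sostdc1 0 in each. In all, 2 of 8 members were called higher in each library (background 3.3%, 6.27% and 10.8%) and 0, 4 and 1 lower (0.368%, 1.85% and 2.03%) in C, T1 and T3. Among the 5, 8 and 20 barcodes with Il17a and no Cd4, Maf was at 767, 678 and 762 CPM, and Sostdc1 had 0 UMIs in each. Izumo1r in barcodes with Il17a and Cd4 had 25 UMIs in T1 and 0 in T3, and the interval of its log2 ratio of T3 to T1 ended at −1.37. It was the 1 called of the 6 members with 20 UMIs there (background 3.58% lower and 5.22% higher). In T1 over C 0 of 6 were called, and in T3 over C Maf was the 1 member with 20 UMIs and was not called, beside 4.49% and 9.56% of genes higher and 2.22% and 2.47% lower.

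T barcodes with no UMI of the 4 genes also held less Sostdc1 in T3. Sostdc1 had 32 UMIs there in C, 42 in T1 and 0 in T3. The interval of its log2 ratio ended at −2.16 in T3 to C and at −3.27 in T3 to T1. Compared with C, T1 was higher for 5 members in this class (background 2.15% higher and 3.88% lower): Maf (1.69), Cxcr5 (1.36), Il21 (1.31), Izumo1r (1.14) and Sostdc1 (1.08). In T3 to C, Sostdc1 was the 1 member called lower and 0 were called higher (background 13.2% lower and 5.67% higher). In T3 to T1, Sostdc1, Il21 (−3.14) and Tox2 (−1.46) were lower and 0 of 8 higher (background 7.37% lower and 4.06% higher). Compared with the Cd4 class of the same library, 8, 6 and 3 members were lower in C, T1 and T3 (background 2.51%, 1.54% and 1.09%) and 0 higher (7.19%, 3.47% and 2.66%). Haemoglobin was at 10088 CPM in this class of T3, against 2.58 CPM in C, and its part in these ratios was not tested in this class.

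Sostdc1 came from few barcodes, some of them rich in it, at medians of 4.5, 4 and 6 UMIs in C, T1 and T3. Over all T barcodes, 26 in C, 35 in T1 and 3 in T3 held a Sostdc1 UMI, with 157, 284 and 18 UMIs and a maximum of 17, 34 and 11 in a barcode. At least 5 UMIs were present in 13, 17 and 2 of them. Of the barcodes, 18, 26 and 2 fell in the Cd4 class. The third barcode of T3, with 6 UMIs, also held Cd8b1.

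CD3-positive barcodes with B-cell UMIs, which were left out of the T barcodes, held 82 UMIs of Sostdc1 in C, 86 in T1 and 0 in T3. The interval of its log2 ratio of T3 to C ended at −2.52. The median depth of these barcodes was 5251, 6378 and 1376 UMIs in C, T1 and T3. Haemoglobin was above 1% of UMIs in 1, 0 and 427 of them, the last out of 739. The part of depth and haemoglobin in the ratios of these barcodes was not tested. Sostdc1 was the 1 member called of 8 in T3 over C in them, where 7.34% of genes were lower and 3.83% higher. In T3 over T1, Sostdc1, Maf (−1.83) and Tox2 (−1.46) were lower, 3 of 8, with 5.76% of genes lower and 3.51% higher. In T1 over C, Maf (1.70), Izumo1r (1.70) and Sh2d1a (1.08) were higher, 3 of 8, with 2.69% higher and 3.04% lower. With these barcodes added to the T barcodes, Izumo1r joined Maf among those higher in T1 than in C, at 1.05 (background 2.71% higher and 3.8% lower). Sostdc1 stayed the 1 lower in T3 than in C (10.6% lower and 4.66% higher), and Sostdc1, Maf, Cxcr5 and Tox2 were lower in T3 than in T1 (7.71% lower and 3.82% higher).

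**Figure D4:**
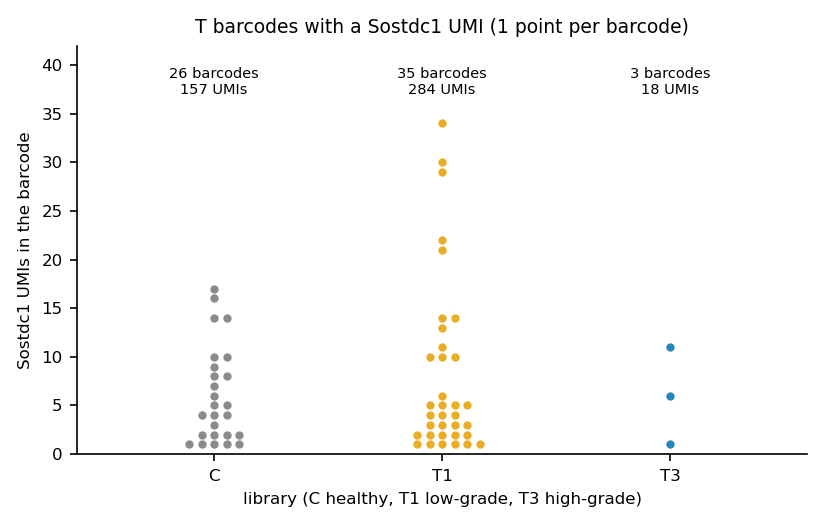
Sostdc1 UMIs (y axis) in each T barcode that held at least 1, for libraries C, T1 and T3 (x axis), with 1 point per barcode. There were 26 such barcodes in C, 35 in T1 and 3 in T3, and the richest held 17, 34 and 11 UMIs.

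Barcodes with Sostdc1 also carried the other members more often than the remaining T barcodes did. Tbc1d4 was found in 23 of 26 Sostdc1 barcodes of C and 31 of 35 of T1, that is 88.5% and 88.6%, against 12.6% and 18.6% of the other T barcodes. Cxcr5 was in 15 of 26 and 16 of 35, against 3.79% and 6.69%, and Tox2 in 17 of 26 and 18 of 35, against 4.17% and 8.96%. The checkpoint receptor gene Pdcd1 was in 17 and 21 of them (7.06% and 10.8% of the others) and Bcl6, the defining repressor of Tfh cells, in 10 and 15 (6.42% and 9.74% of the others). The median UMI count of Sostdc1 barcodes was 5461.5 in C and 6142 in T1, against 5702 and 6086 in the others, so depth was alike. Most Sostdc1 barcodes lay in the Cd4 class, whereas the other T barcodes mix all classes. Within the Cd4 class the gaps were narrower. There, Tbc1d4 was in 88.9% and 88.5% of Sostdc1 barcodes of C and T1, against 29.3% and 32.5% of the others. Cxcr5 was in 61.1% and 50%, against 10% and 12.1%, and Tox2 in 72.2% and 53.8%, against 11.0% and 13.4%. The 3 Sostdc1 barcodes of T3 all held Tbc1d4 and Icos, and 1 held Cxcr5.

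Members were found together in single Cd4 barcodes, and in a smaller share of them in T3. Each member alone was also least frequent in T3, which lowers joint shares, and association beyond that was not tested. After thinning to 1000 UMIs, at least 2 of the 8 members were present in 65 of 305 Cd4 barcodes of C (21.3% [16.9, 26.3]), 116 of 477 of T1 (24.3% [20.5, 28.4]) and 49 of 473 of T3 (10.4% [7.76, 13.5]). At least 3 were present in 9.51%, 10.1% and 2.11%. Without thinning, at least 2 were present in 45.5%, 61.2% and 29.4%, so depth moved the values and left T3 the lowest.

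Of 49 ordered pairs (the share of Cd4 barcodes with a member, Sostdc1 left out as the first, that held another), 45 were lowest in T3 and 4 were not. This count does not allow for the lower share of every member in the Cd4 class of T3. Of Cd4 barcodes with Cxcr5, Tox2 was present in 23 of 40 in C (57.5%), 31 of 68 in T1 (45.6%) and 2 of 18 in T3 (11.1%), and Sostdc1 in 11, 13 and 0. Among those without Cxcr5, Tox2 was present in 8.21%, 10.6% and 4.98%, and Sostdc1 in 2.61%, 3.14% and 0.415%. Tbc1d4 was present in 35 of 40, 51 of 68 and 12 of 18 of the Cxcr5 barcodes, against 24.6%, 29.0% and 16.8% of those without Cxcr5. Of Cd4 barcodes with Il21, Tbc1d4 was present in 25 of 28 in C (89.3%), 24 of 31 in T1 (77.4%) and 11 of 16 in T3 (68.8%). Among those without Il21 it was present in 27.1%, 32.6% and 16.9%. Sh2d1a was present in 26 of 28, 26 of 31 and 6 of 16 of the Il21 barcodes, and in 124 of 280, 239 of 451 and 185 of 484 of the Cd4 barcodes without Il21, so that its excess in Il21 barcodes of C and T1 was not seen in T3. Izumo1r was in 20 of 28, 25 of 31 and 13 of 16 of the Il21 barcodes and Maf in 25, 30 and 14 of them in C, T1 and T3. These pair counts were not thinned, and the Cxcr5 barcodes had median depths of 5691.5, 6462.5 and 6005.5 UMIs.

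Among the 20 other Tfh genes listed beside the members, Bcl6 was at like levels in the Cd4 class of the 3 libraries, at 32.2 CPM in C, 31.2 in T1 and 31.1 in T3 (T3 to C −0.05 [−0.56, 0.46]). Of the 19 with enough UMIs, 3 were higher and 4 lower in T3 than in C, beside 4.06% higher and 5.82% lower over all genes, and their median was −0.08 against −0.06 over all genes. Lower were Il4, a Tfh and Th2 cytokine, with 1 UMI in T3 against 55 in C, which is 0.42 against 28.6 CPM (−6.09 [−11.4, −3.55]), Pdcd1 at 15.9 CPM against 56.2 (−1.82), the ATP receptor gene P2rx7 (−1.66) and the CD30 ligand gene Tnfsf8 (−1.03). Higher were Btla, an inhibitory receptor (1.61), the IL-6 receptor chain Il6st (1.15) and Lef1 (1.08), a factor of naive and early Tfh cells. Between T1 and C, Icos at 482 CPM in T1 against 240 in C (1.01) and Batf (1.0) were higher and 0 of 19 lower (over all genes 1.68% higher and 1.21% lower). Between T3 and T1, Btla and Lef1 were higher and Pdcd1, Il4, Batf and P2rx7 lower (3.59% higher and 6.61% lower over all genes).

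Genes that oppose the Tfh fate moved in both directions. Klf2, a factor that blocks Tfh differentiation and maintains egress receptors, was at 1547 CPM in C, 483 in T1 and 540 in T3, lower in T1 (−1.68) and in T3 (−1.52) than in C. Prdm1, encoding Blimp-1, the repressor of Bcl6, was at 6.71 CPM in T3 against 13.5 in C, lower by −1.01 [−2.01, −0.06] on 16 and 26 UMIs. S1pr1 (1.05) and Il2ra, a subunit of the IL-2 receptor (1.01), were higher in T3 than in C. The calls on Prdm1, Il2ra, S1pr1, Tnfsf8, Il2, Icos and Batf lie near the 2-fold limit. Those on Prdm1, Tnfsf8 and Il2 in T3 over C fall short of it when the ratios are raised by the 0.10 of median-of-ratios scaling, those on Prdm1 and Batf in T3 over T1 when raised by its 0.12, and those on Icos and Batf in T1 over C when they are moved by its −0.014. Of the 10 genes, 2 were higher and 2 lower in T3 than in C (4.06% and 5.82% over all genes) and 1 each (Il2ra and Klf2) in T1 than in C (1.68% and 1.21%).

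Cd4 barcodes with at least 2 members, thinned to 1000 UMIs, differed from the remaining Cd4 barcodes in some of the listed genes. Of the 20 other Tfh genes, 11 were more frequent in them in all 3 libraries, 1 less frequent and 8 on no single side. Of the 10 opposing genes, 1 was more frequent, 4 were less frequent and 5 on no single side. Of the 16 listed relatives of the members, 5 were more and 2 less frequent in all 3 libraries. Of the 8 listed partner genes of other cells, 1 was more and 1 less frequent. The share over all genes was not computed for this split, so these counts have no background. The genes given here were chosen after their values were seen. Pdcd1 was in 16.9%, 22.4% and 4.08% of the barcodes with at least 2 members in C, T1 and T3, against 1.67%, 3.88% and 0.708% of the others. Tnfsf8 was in 30.8% and 26.7% of them in C and T1, against 6.25% and 8.31% of the others, and in T3 it was in 1 of 49 against 27 of 424. Klf2 was in 30.8%, 12.9% and 20.4% of them, against 56.7%, 31.0% and 37.5%, and S1pr1 in 1.54%, 3.45% and 10.2%, against 14.2%, 9.70% and 26.2%. Bcl6 was in 9.23%, 10.3% and 6.12%, against 2.08%, 1.39% and 2.83%. Id2, an opponent of the Tfh fate, was in 12.3%, 10.3% and 20.4% of them, against 22.9%, 28.8% and 13.4%, and Cd40lg in 16.9%, 9.48% and 8.16%, against 8.33%, 10.8% and 13.2%. Tnfsf8, Id2 and Cd40lg thus changed side between libraries.

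Of the relatives of the members, Cxcr3, the chemokine receptor of type 1 T cells, had the largest ratio in the Cd4 class, at 9.65 CPM in T3 against 105 in C (−3.44 [−4.13, −2.81]). Il2 (−1.02) and the small MAF gene Mafg (−1.23) were also lower in T3 than in C, and 0 of 10 tested relatives were higher, beside 5.82% of all genes lower and 4.06% higher. Tox, the relative of Tox2, was at 96.2, 75.6 and 65.5 CPM in C, T1 and T3, with a ratio of −0.56 [−0.87, −0.24] in T3 to C. The adaptor gene Sh2d2a was at 148, 174 and 148 CPM. Tox3, Folr1, Folr2 and Sost had 0 UMIs in the Cd4 class of every library.

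Cxcr5 did not reach 2-fold between libraries in B barcodes, and its ratios to C there were positive. Among 2632, 2934 and 879 B barcodes, which had at least 2 UMIs of Cd79a, Cd79b and Ms4a1 and none of CD3, it was at 79.7 CPM in C, 116 in T1 and 123 in T3. The log2 ratio was 0.54 [0.43, 0.65] in T1 to C, 0.63 [0.45, 0.80] in T3 to C and 0.09 [−0.08, 0.25] in T3 to T1. The 4 plasma cell markers summed in the same barcodes to 506 CPM in T3 and 3765 in T1, against 6141 in C. The 5 germinal centre B-cell markers summed to 25.4 CPM in T3 and 70.1 in T1, against 166 in C. The part of both marker sets in the ratios of Cxcr5 was not tested. The backgrounds of genes called in T1 over C, T3 over C and T3 over T1 were 0.824%, 5.63% and 5.92% higher and 4.09%, 5.12% and 1.74% lower. With scaling by the median of ratios, the ratios of all genes in B barcodes moved by −0.19 in T3 to C and by −0.22 in T3 to T1, so that those of Cxcr5 became 0.43 and −0.13, and no call on Cxcr5 changed. Compared with the Cd4 class of the same library, Cxcr5 was higher in B barcodes by log2 ratios of 1.01, 1.84 and 3.74 in C, T1 and T3, the 1 of 8 higher in each (background 11%, 9.72% and 11.8%), and 7, 7 and 6 of 8 members were lower (11.6%, 14.2% and 9.97%). The share of thinned B barcodes with Cxcr5 was 8.71%, 12.2% and 11.6% (31.3%, 39.7% and 29.2% unthinned). The other 7 members were at 0 to 16.2 CPM in B barcodes. Of these, Tbc1d4 at 9.28 CPM in T3 against 1.24 in C (2.91), Izumo1r (2.19) and Sh2d1a (2.04) were called higher in T3 than in C, Izumo1r was higher (1.05) and Tox2 lower (−1.42) in T1 than in C, and Sh2d1a (1.5) and Tbc1d4 (2.74) were higher in T3 than in T1. The 6 T-cell markers summed to 81.5 CPM in B barcodes of T3 against 35.9 in C.

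**Figure D5:**
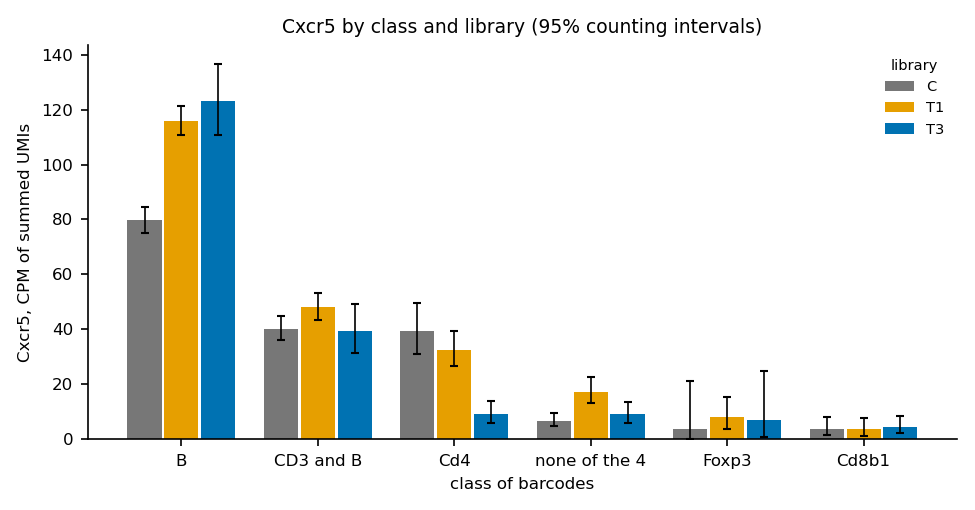
Cxcr5 in CPM of summed UMIs (y axis) for B barcodes, CD3-positive barcodes with B-cell UMIs and 4 classes of T barcodes (x axis), in libraries C, T1 and T3. Bars are 1 library each and error bars are exact 95% Poisson intervals. In B barcodes Cxcr5 was at 116 CPM in T1 and 123 in T3, against 79.7 in C, and in the Cd4 class at 9.23 in T3, against 39.5 in C.

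Genes of the partner cell were measured in the same B barcodes. Il21r, the receptor of IL-21, was at 107 CPM in C, 93.4 in T1 and 105 in T3, Cd40 at 61.3, 43.8 and 55.4 and Icosl at 68.6, 49.4 and 83.9. The PD-1 ligand gene Cd274 was at 47.5, 52.6 and 92.8 CPM, with a ratio of 0.97 [0.76, 1.17] in T3 to C. None of the 7 partner genes tested was called in B barcodes. The background there was 0.824%, 5.63% and 5.92% higher and 4.09%, 5.12% and 1.74% lower in T1 over C, T3 over C and T3 over T1. Cxcl13, the ligand of CXCR5, which stromal cells make, had 0, 2 and 1 UMIs. In the Cd4 class, Pdcd1lg2 was lower in T3 than in C (−1.23) and the other 5 tested were not called (background 5.82% lower and 4.06% higher). Pdcd1lg2 was also the 1 of 6 called in T3 over T1, where it was lower (background 6.61% lower and 3.59% higher). In T1 over C, 0 of 6 were called (1.68% higher and 1.21% lower).

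Markers of other cell types were present in the Cd4 class at unequal levels. The 4 plasma cell markers summed to 111 CPM in C, 143 in T1 and 62.5 in T3 and the 4 regulatory T-cell markers, with Foxp3 at 0 by the gate, to 432, 675 and 336 CPM. Markers of gamma-delta T cells summed to 29.1, 27.7 and 16.4 CPM and of natural killer (NK) cells to 22.4, 49.8 and 6.29 CPM. Those of type 17 helper cells, with Il17a at 0 by the gate, summed to 3.64, 10.1 and 15.1 CPM and of epithelium to 9.36, 7.56 and 9.23 CPM. The 4 myeloid markers summed to 5.72 CPM in C, 6.30 in T1 and 48.2 in T3, and haemoglobin to 0, 0.315 and 445 CPM. With barcodes above 1% haemoglobin left out, Cxcr5 was also called lower in T3 than in C across all T barcodes (−1.05), and no call in the Cd4 class changed. The T-cell markers summed to 5728, 5571 and 4263 CPM, and of the 5 B-cell markers Cd79a, Cd79b and Ms4a1 were at 0 by the gate. The part of these transcripts in the levels of the members was not tested.

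As a description over the 17 class-by-library sums with at least 20 barcodes, the genes whose level, as log2(CPM + 10), was most like that of each member were found among 8512 genes. For Maf they were Gna13, Icos and Rap1a (Pearson r 0.96, 0.95 and 0.95), and for Tbc1d4 the ligand genes Cd40lg, Tnfsf11 and Tnfsf8 (0.85, 0.84 and 0.82). For Sh2d1a they were Zfp746, Grap and Il16 (0.95, 0.93 and 0.91), for Izumo1r Malt1, Dapp1 and Cd5 (0.93, 0.90 and 0.90), and for Tox2 Smco4, Cstb and Ctsb (0.89, 0.87 and 0.86). Il21 was most like Ap1s2, Sap30 and Mcur1 (0.87, 0.85 and 0.84), Cxcr5 like Nfia, Setd4 and H2-Q2 (0.86, 0.86 and 0.84) and Sostdc1 like Cebpa, Ifitm2 and Ntrk3 (0.79, 0.74 and 0.72). Among the members themselves r ran from −0.34 for Il21 and Sh2d1a to 0.76 for Izumo1r and Maf. The sums share libraries and differ in depth.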

How the data were processed

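CD45+ cells were sorted from colon by flow cytometry and made into 10x Genomics 3′ libraries, per the labels' protocols. The files hold raw UMI counts for each gene in each cell barcode, which the authors deposited with no scaling. Tools named by the submitters' processing notes were Seurat 3.1.4, Cell Ranger 3.1.0 and CASAVA 1.8, with the genome GRCm38. No source used here gives the annotation or the use of strand or introns in counting. Every barcode had at least 500 UMIs, and the deposited totals were 35489195 UMIs in 7903 barcodes of C, 37208603 in 8566 of T1 and 15898397 in 5779 of T3. A symbol with more than 1 row (Itgam) was not used.

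Counts were summed over the barcodes of a class and divided by all UMIs of the class (CPM). Ratios have exact conditional intervals at 95%, levels exact Poisson and shares exact Clopper-Pearson intervals (Python 3.11.15, numpy 2.4.6, scipy 1.17.1, pandas 2.3.3). These cover counting error only. For a count of 0, the limit given is the end of the exact 95% interval. The ratio and thinning steps were tested on simulated independent counts, which do not cover UMIs that clump in few barcodes, as those of Sostdc1 do. No doublet caller was run: CD3-positive barcodes with B-cell UMIs were set apart, and the deepest 5% were left out as an alternative. The fit and the background cover all genes with at least 20 UMIs. The members and lists were chosen with earlier results of these data known. Named are the members, the listed genes and, for each member, the 3 genes with the highest correlation among genes with at least 100 UMIs in T barcodes. Promoters were given for 4 of the 8 members. The other alternatives were a mitochondrial limit of 10%, at least 1000 UMIs per barcode, 2 CD3 UMIs, B-cell UMIs kept, haemoglobin barcodes left out, median-of-ratios scaling, means over barcodes, a minimum of 100 or 1 UMI, 4 B-cell UMIs and thinning to 2000.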

Additional observations from a re-analysis of the deposited data

Results flagged for a closer look

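Some members had intervals that excluded no difference in opposite directions in different classes of barcodes under the same comparison, which is what singled out the values given here as log2 ratios of CPM. The differences between classes were not tested, and several of the values are below 2-fold. For Izumo1r in T1 to C, the Cd4 class had 0.21 and the class with no UMI of the 4 gate genes 1.14, whereas the Foxp3 class had −0.59 and the Cd8b1 class −0.71. For Izumo1r in T3 to C, the class with no UMI of the 4 genes had 0.95, the Cd4 class −0.65 and the Foxp3 class −0.44.

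Il21 in T1 to C had 1.31 in the class with no UMI of the 4 genes and −0.77 in the Cd4 class. Cxcr5 in T3 to C had 0.63 in B barcodes and −2.10 in the Cd4 class. Sh2d1a in T1 to C had 0.21 in the Cd4 class, 0.97 in the class with no UMI of the 4 genes and −1.20 in the barcodes with Cd8b1 beside another of the 4 genes. Maf in T3 to C had 0.83 in the class with no UMI of the 4 genes, −0.45 in the Cd4 class, −0.39 in the Foxp3 class and −1.44 in the barcodes with Cd8b1 beside another gene.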

How the results depend on the processing

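No paired analysis was possible because each group has 1 library. Of 65 log2 ratios of members in all T barcodes, the Cd4 and Foxp3 classes and, for Cxcr5, B barcodes, all 65 had the same call with a mitochondrial limit of 10%, at least 1000 UMIs per barcode, 2 CD3 UMIs or median-of-ratios scaling, 64 with haemoglobin barcodes left out, 63 with B-cell UMIs kept, and 61 with the top 5% of UMIs left out or with means over barcodes. In all T barcodes, 2 members instead of 1 were called higher in T1 than in C with B-cell UMIs kept (Izumo1r 1.05), and 2 instead of 1 were lower in T3 than in C without haemoglobin barcodes or with means over barcodes, and 3 without the top 5%. In the Cd4 class, 2 instead of 4 were lower in T3 than in C with a minimum of 100 UMIs, and 5 instead of 3 were lower in T3 than in T1 without the top 5%. Means over barcodes ended the call of Cxcr5 in T3 to T1 in all T barcodes (−1.0) and added Izumo1r in the Cd4 (−1.06) and Maf in the Foxp3 class (−1.13) in T3 to T1, and Il21 in T3 to C in all T barcodes (−1.24). With B-cell UMIs kept, Il21 lost its call in T3 to T1 in all T barcodes (−0.92). Without the top 5%, Il21 (−1.22) and Cxcr5 (−1.07) were added in T3 to C in all T barcodes, and Il21 (−1.24) and Maf (−1.09) in T3 to T1 in the Cd4 class. Thinned to 2000 UMIs, at least 2 members were present in 26.8%, 34.3% and 19.9% of the Cd4 barcodes of C, T1 and T3.

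Leaving out the richest barcode of the member and leaving out Cd4 barcodes with Ccr7, Lef1 or S1pr1 UMIs were chosen after seeing the data. The first kept 64 of 65 calls. The second kept 17 of 24. It gave 3 members instead of 0 lower in T1 than in C, 2 instead of 4 lower in T3 than in C, and 1 lower instead of 3 and 1 higher instead of 0 in T3 to T1. Tox2 reversed to 0.30 in T3 to C and to 1.09 in T3 to T1. Members without a call changed direction as well. Maf, Tbc1d4, Sh2d1a and Izumo1r were highest in T3 in the subset, whereas in the whole class they were lowest in T3. Il21 was at 50.6 CPM in T3 against 26.4 in T1 in the subset, and was lower in T3 than in T1 in the whole class. This subset holds fewer barcodes by construction, and the cause was not tested. With 58 barcodes of T3 in it, the intervals of members at a few UMIs are wide.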
